A study of Sus scrofa with 23 samples.

Results

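The genes described here are the cell cycle and DNA replication genes of a porcine expression array, measured in pig macrophages exposed to bacterial lipopolysaccharide (LPS). They were chosen by symbol alone: probe sets annotated to 1 gene whose symbol starts with CDC, CDK, MCM, ORC or RFC and a digit, with CDKN, CCNA, CCNB, CCND, CCNE, POLA, POLD or POLE, or is PCNA, TOP2A or MKI67. The rule found 68 of the 6765 genes with a named probe set, on 100 of the 23999 probe sets that are not array controls. The probe set with the highest mean stood for each gene. No comparison of samples entered the choice, but a symbol is a loose guide to function, and 23 of the 68 genes are partners, relatives or namesakes of the cell cycle machinery. The other 45 act in the cell cycle or in replication, or are cyclin-dependent kinases, some of which work outside the cycle.

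Proliferating cells copy their DNA in S phase. The origin recognition complex (ORC proteins) marks the start sites and loads the ring-shaped MCM helicase, CDC45 helps to switch the helicase on, and the sliding clamp PCNA, the clamp loader RFC and DNA polymerases alpha, delta and epsilon copy the strands. Cyclins and cyclin-dependent kinases (CDKs) drive the steps, CDC25 phosphatases release the kinases from inhibition, and the CDKN proteins hold them back. CDC20 and the anaphase-promoting complex end mitosis by marking cyclins for destruction. Macrophages grown from bone marrow proliferate in response to CSF1, and LPS is known as a signal that stops this growth while it activates the cells. Several of these proteins also work outside the cycle: PCNA takes part in DNA repair, and CDKN1A is a well-known p53 target.

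The cells were bone marrow-derived macrophages of Large White by Landrace F1 pigs, grown with recombinant human CSF1 (colony stimulating factor, the macrophage growth factor) and plated before stimulation. Every labelled group got 100 ng/ml LPS from Salmonella enterica serotype minnesota Re 595 except the 0 h group, which is unstimulated. The labels name 3 pigs, 2 male (pigs 1 and 3) and 1 female (pig 2), each sampled at 0, 2, 7 and 24 h in duplicate cultures, apart from pig 3 at 24 h with 1 culture, and the animals' age is not given in the sources used here. This gave 6 arrays at 0, 2 and 7 h and 5 at 24 h. All values below are log2 of the deposited linear intensity, and the number of arrays limits their precision.

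The labels did not survive a check against the arrays. The Y-linked gene EIF1AY read 8.16 to 9.45 on 15 arrays and 3.60 to 4.08 on 8, and on 8 arrays its level went against the labelled sex. Taken in the order of the deposited columns, the low arrays were columns 3, 4, 9, 10, 15, 16, 21 and 22, whereas the labels put the female pig in columns 9 to 16. On the probe sets of all other genes, 11 pairs of arrays were each other's most similar array; all 11 were neighbouring columns, all 11 shared a labelled pig and 0 shared a labelled time. None of the 22 arrays with a labelled duplicate culture was most similar to that duplicate (correlation 0.975 to 0.990, against 0.987 to 0.998 with the most similar array). One reading of the table takes its columns in time order with neighbours as duplicates. That reading is inferred from array similarity and is not in the labels, so no time is assigned here: the members are first described over 4 runs of columns (1 to 6, 7 to 12, 13 to 18 and 19 to 23) with no test, and the labelled times are then tested as the labels give them. Non-overlap below means that every array of one run lies above, or below, every array of the other, and its share among all 6765 genes is given beside the members' count.

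Of 6 LPS response genes, all but IL6 were higher in columns 7 to 12 than in columns 1 to 6 without overlap, and their summed linear intensity was 4726 to 9309 in columns 1 to 6, 59298 to 60524 in columns 7 to 12, 55168 to 65827 in columns 13 to 18 and 37871 to 66948 in columns 19 to 23. TNF, the cytokine that macrophages release first, read 5.42 to 6.10 in columns 1 to 6, 12.35 to 12.56 in columns 7 to 12, 10.06 to 11.30 in columns 13 to 18 and 6.20 to 10.66 in columns 19 to 23. Of 8 macrophage markers 5 were measured, and their summed linear intensity was 1001 to 1639 in columns 1 to 6, 1583 to 2874 in columns 7 to 12, 961 to 3257 in columns 13 to 18 and 2356 to 4295 in columns 19 to 23. The 5 did not share a pattern. In run order SIGLEC1 had medians of 5.02, 5.37, 7.25 and 8.32, and CD14 of 7.83, 9.44, 9.26 and 9.63. CD163 had medians of 9.37, 9.50, 8.27 and 10.52, and MRC1 of 7.58, 7.84, 7.90 and 7.33. Over all arrays CD163 read 7.85 to 11.36 and ITGAM 4.39 to 5.03. All 4 T cell markers were measured and summed to 126 to 162 in columns 1 to 6, 157 to 223 in columns 7 to 12, 276 to 575 in columns 13 to 18 and 190 to 1520 in columns 19 to 23. CD2 reached 10.45, while CD3E (4.21 to 4.99), CD3D (5.61 to 6.31) and LCK (4.26 to 4.77) stayed low on every array. The single measured B cell marker of 4, CD79B, read 4.10 to 4.51. The 4 stromal genes measured of 5 summed to 286 to 1288 in columns 1 to 6, 339 to 1060 in columns 7 to 12, 369 to 1086 in columns 13 to 18 and 289 to 613 in columns 19 to 23. They did not move together. In run order LUM had medians of 6.04, 5.56, 5.42 and 4.03, and DCN of 5.86, 5.49, 5.56 and 4.81. COL1A2 had medians of 7.09, 7.14, 7.20 and 7.34, and COL3A1 of 6.55, 7.15, 7.30 and 6.93. The erythroid genes (3 of 4 measured) summed to 306 to 384 in columns 1 to 6, 309 to 365 in columns 7 to 12, 167 to 231 in columns 13 to 18 and 135 to 177 in columns 19 to 23, with AHSP at 3.90 to 4.48 throughout. The lower sums came from HBB, with medians of 8.29, 8.02, 7.17 and 6.54. ALAS2 went the other way, with medians of 5.43, 5.50, 5.54 and 5.76. The granulocyte precursor genes ELANE and PRTN3 (2 of 4 measured) summed to 608 to 2040, 629 to 1997, 606 to 1780 and 182 to 1335 in the same order. The part of these other cells in the results on columns 13 to 18 and 19 to 23 was not tested. GAPDH, read at its 3' end minus its 5' end as a sign of RNA quality, gave -0.25 to -0.09, -0.27 to -0.11, -0.47 to -0.20 and -0.29 to -0.07 log2 in the 4 runs, and its part was not tested either.

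Members lay on both sides of their levels in columns 1 to 6. Those apart without overlap were more often lower than higher in each later run, and so were all genes. In run order, 17.6%, 32.4% and 27.9% of members were lower, against 11.4%, 28% and 22.4% of all genes. Higher were 7.35%, 11.8% and 8.82% of members, against 5.47%, 13.9% and 13.9% of all genes. The following examples were picked after values were seen. By run median, PCNA, POLA2, TOP2A and CCNB1 stood highest in columns 13 to 18. Other replication and mitosis genes lay below columns 1 to 6 there without overlap, among them CDC20, CDC23, CDC25B, CDC26, CDC34, POLD4 and POLE2. The helicase genes MCM2 (on 1 of 3 probe sets), MCM5 and CDC45 had their lowest median in columns 19 to 23. The CDK inhibitors CDKN2D and CDKN1B had their highest median in columns 19 to 23, and the inhibitor CDKN1A had its lowest in columns 13 to 18. The span of a gene, its highest minus its lowest array, had a median of 1.06 log2 over the 68 members and 0.96 over all genes. In all, 41 members (60.3%, against 47.5% of all genes) spanned at least 1 and 9 (13.2%, against 13.3%) at least 2. The spans ran from 0.31 for POLE4, a small histone-fold subunit of polymerase epsilon, to 3.10 for CDC42EP3, a cytoskeletal effector of CDC42. Neighbouring columns differed by a median of 0.10 log2 over the members, and by 1.07 at most, for CDC25C in 1 pair. MKI67, MCM6, MCM7, CDK1, CDK4, CDK6, CCND1, CCND3, CCNE1, CCNE2, CDC6 and CDC25A, the other well-known genes that the rule names, were not measured by a probe set with their symbol. In bulk RNA, fewer cycling cells and less RNA per cell cannot be told apart.

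**Figure D1:**
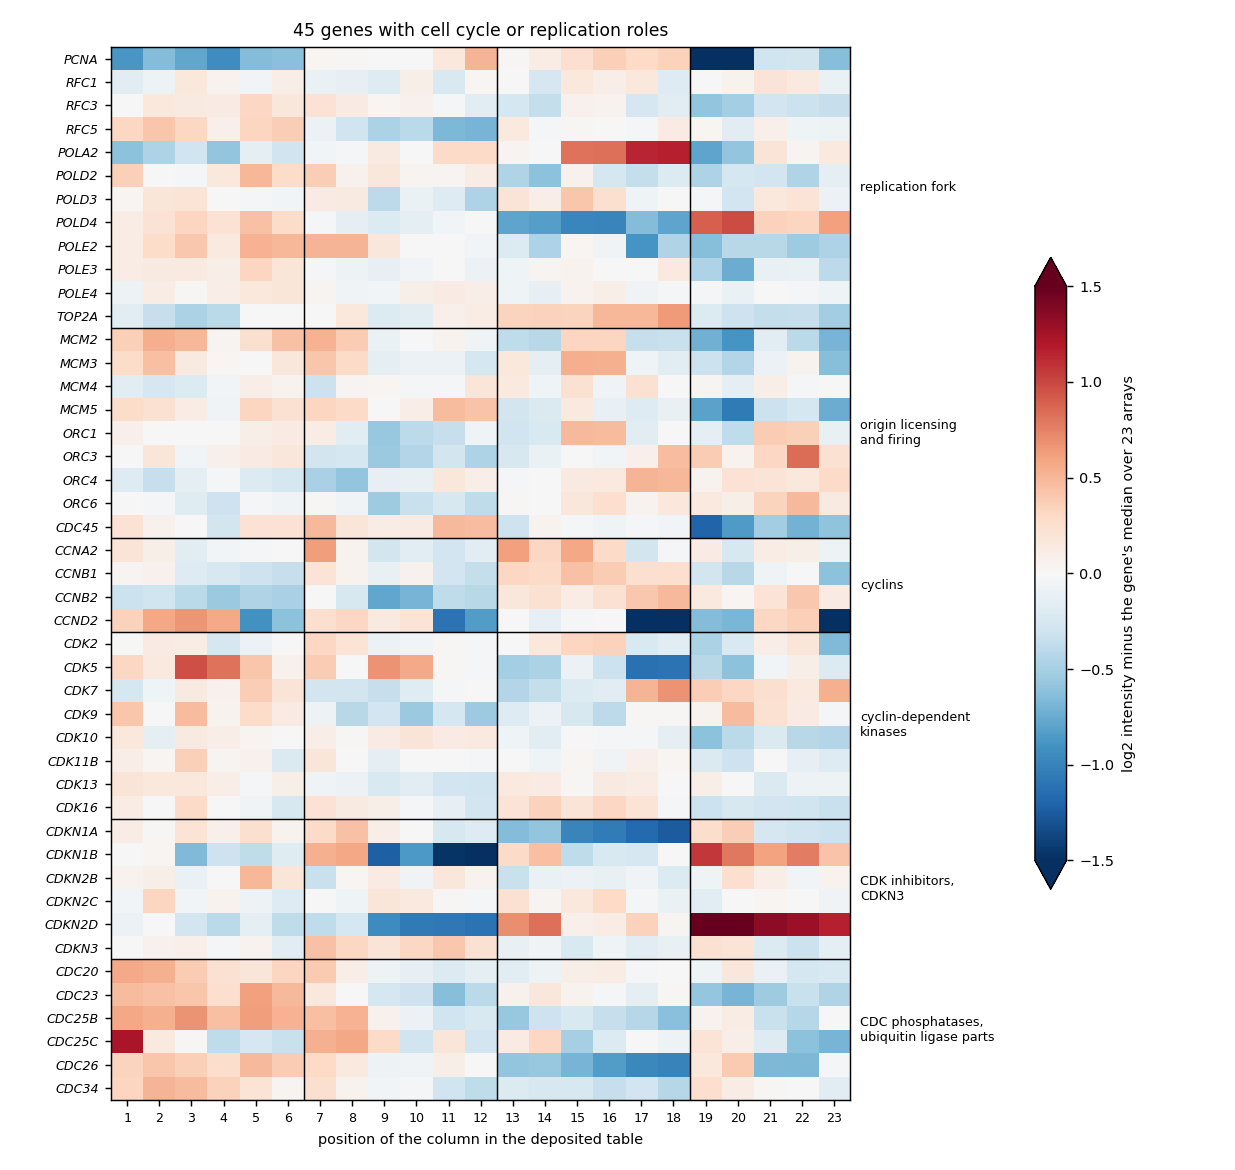
Log2 intensity of 45 members (rows, by role) on the 23 arrays in the order of the deposited columns (horizontal axis), each minus the gene's median. The 45 have cell cycle or replication roles or are cyclin-dependent kinases, some of which work outside the cycle. The colour scale is capped at 1.5 and vertical lines part the 4 runs of columns. By run median, PCNA and POLA2 are highest in the middle runs, and CDC25B, CDC26 and POLD4 are lowest in columns 13 to 18. MCM2, MCM5 and CDC45 are lowest in columns 19 to 23, and CDKN2D is highest there.

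Among the 12 replication fork genes, PCNA, the sliding clamp, had the widest span (2.33). It read 10.53 to 10.84 (median 10.75) in columns 1 to 6, 11.46 to 11.97 (median 11.48) in columns 7 to 12 and 11.49 to 11.82 (median 11.73) in columns 13 to 18. In columns 19 to 23 it read 9.73, 9.65, 11.17, 11.18 and 10.83. Every array of columns 7 to 18 thus lay above every array of columns 1 to 6 (differences of medians 0.74 and 0.99). The last run was split, with columns 19 and 20 below every other array of the table and columns 21 and 22 between the first and the second run.

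POLA2, the regulatory subunit of the polymerase alpha-primase that starts new strands, had a like pattern. It read 7.84 to 8.32 (median 8.08) in columns 1 to 6, 8.41 to 8.75 (median 8.52) in columns 7 to 12 and 8.46 to 9.62 (median 9.28) in columns 13 to 18, where the pairs read 8.50 and 8.46, 9.27 and 9.28, and 9.60 and 9.62. Columns 19 to 23 read 7.67, 7.86, 8.65, 8.50 and 8.60, again lowest in columns 19 and 20. Columns 7 to 12 and 13 to 18 did not overlap columns 1 to 6, by 0.45 and 1.20, and columns 19 to 23 overlapped all other runs.

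TOP2A, the topoisomerase that untangles replicated DNA, is made mainly by dividing cells. Its arrays read 9.32 to 9.80 (median 9.53), 9.59 to 9.95 (median 9.83) and 10.13 to 10.44 (median 10.21) in the first 3 runs, and 9.59, 9.48, 9.44, 9.45 and 9.27 in columns 19 to 23. Columns 13 to 18 lay above all other arrays, by 0.68 over the median of columns 1 to 6 and by 0.76 over that of columns 19 to 23. The difference is modest beside that of PCNA, and columns 19 to 23 overlapped columns 1 to 6.

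The polymerase subunits did not share a pattern. POLD4, the smallest subunit of polymerase delta, which is degraded after DNA damage, read 9.60 to 9.93 (median 9.74), 9.28 to 9.49 (median 9.40), 8.50 to 8.83 (median 8.68) and, in columns 19 to 23, 10.38, 10.47, 9.84, 9.81 and 10.10. Its columns 13 to 18 were thus the lowest and did not overlap any other run, opposite in order to TOP2A (Pearson correlation -0.83 over the 23 arrays, a description only). POLE2, a subunit of polymerase epsilon, was dim: its median was 6.21 in columns 1 to 6, 5.96 in columns 7 to 12, 5.54 in columns 13 to 18 and 5.42 in columns 19 to 23, and the last pair of runs lay below every array of columns 1 to 6. POLD2, the second subunit of polymerase delta, read 6.73 to 7.25 in columns 1 to 6 and 6.28, 6.49, 6.46, 6.30 and 6.62 in columns 19 to 23, with no overlap. POLE3, a histone-fold subunit of polymerase epsilon, went from 9.50 to 9.74 in columns 1 to 6 to 8.95, 8.67, 9.30, 9.32 and 9.03 in columns 19 to 23, also with no overlap. POLD3, POLE4 and RFC1 overlapped columns 1 to 6 in all the other runs.

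The clamp loader subunits differed from each other. RFC5 was lowest in columns 7 to 12 (7.34 to 7.94, against 8.10 to 8.45 in columns 1 to 6) and read 8.01 to 8.17 in columns 13 to 18. RFC3 was lowest in columns 19 to 23, at 7.63, 7.71, 7.94, 7.90 and 7.88 against 8.23 to 8.54 in columns 1 to 6. Counted over the 12 fork genes, 2 were higher and 3 lower than columns 1 to 6 without overlap in columns 7 to 12, where 5.47% of all genes were higher and 11.4% lower. In columns 13 to 18, 3 were higher and 2 lower (all genes 13.9% and 28%), and in columns 19 to 23, 0 were higher and 4 lower (all genes 13.9% and 22.4%). These shares of all genes are the background for the counts of the other roles too. The roles were assigned by function after values were seen, so the role counts are descriptions only.

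**Figure D2:**
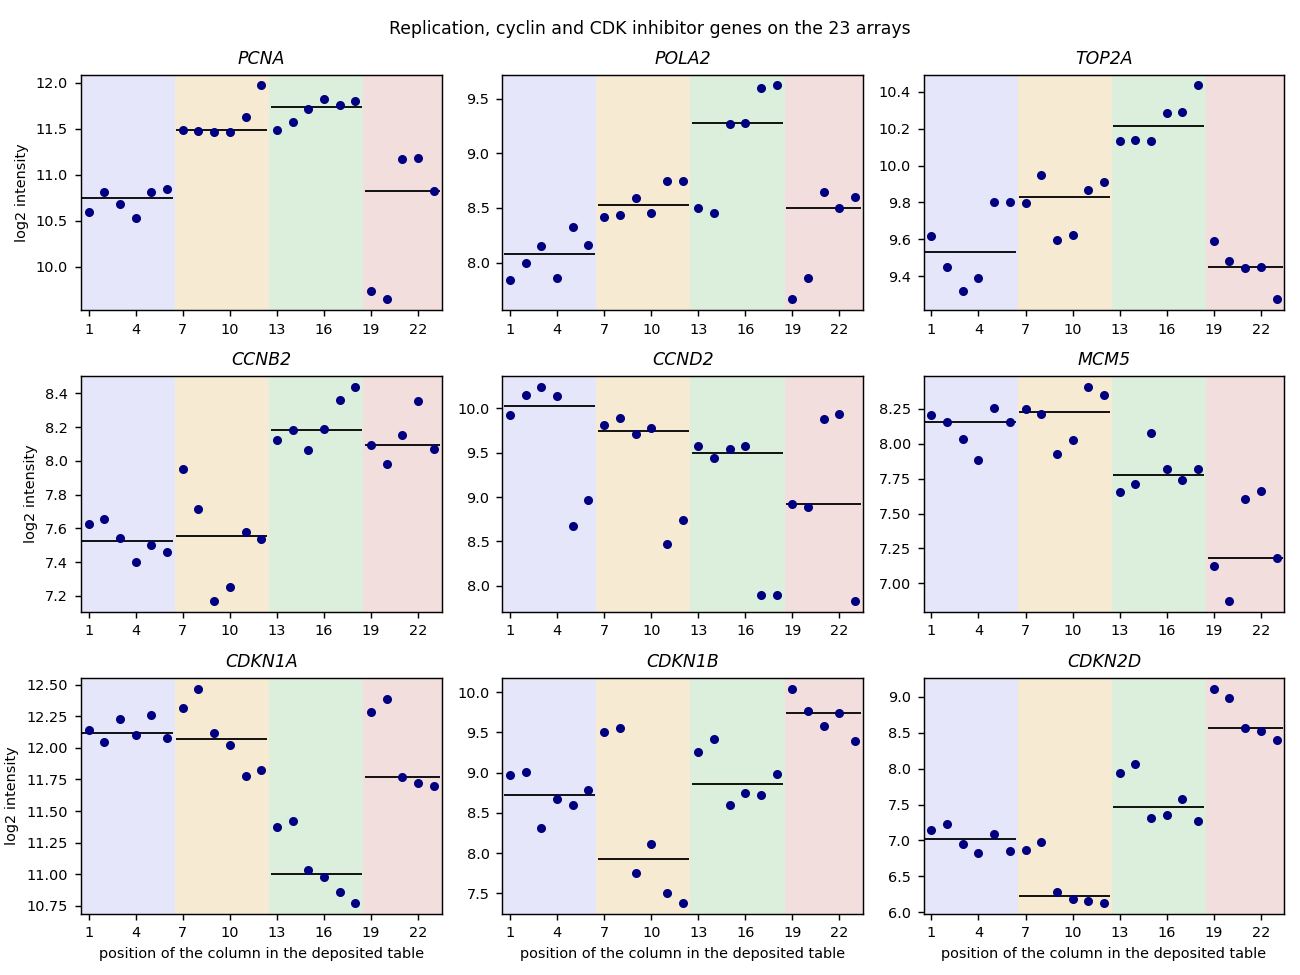
Log2 intensity (vertical axis, its own range in each panel) of 9 members on the 23 arrays by position of the column in the deposited table; points are arrays, shading marks the 4 runs of columns and black lines are run medians. PCNA splits within columns 19 to 23 (9.65 to 11.18), CCND2 splits within every run, and CDKN2D reads 8.40 or more in columns 19 to 23 and at most 8.06 elsewhere.

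The genes of origin licensing and firing (9 members) overlapped between columns 1 to 6 and columns 13 to 18 in all 9 cases. So did 3926 of all 6765 genes. In columns 19 to 23, 2 of the 9 were higher (22.2%, against 13.9% of all genes) and 3 lower (33.3%, against 22.4%). MCM5, a subunit of the helicase ring, read 7.88 to 8.26 (median 8.15), 7.93 to 8.41 (median 8.23) and 7.65 to 8.07 (median 7.78), and then 7.12, 6.87, 7.60, 7.66 and 7.18. CDC45, the helicase cofactor, read 7.13 to 7.63 (median 7.55), 7.52 to 7.90 (median 7.73) and 7.10 to 7.46 (median 7.37), and then 6.21, 6.56, 6.89, 6.70 and 6.80. MCM2, another ring subunit, read 8.42 to 8.92 (median 8.78), 8.28 to 8.89 (median 8.40) and 7.96 to 8.70 (median 8.04), and then 7.65, 7.49, 8.21, 7.97 and 7.68. All 3 lay below every array of columns 1 to 6 in columns 19 to 23, by 0.97, 0.85 and 1.10 between medians, and columns 19 and 20 held the lowest array of each.

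A second probe set of MCM5 followed the first (correlation 0.87 over 23 arrays) with a smaller difference of -0.75, and one of CDC45 did so too (0.83, -0.33). The third MCM5 probe set was dim (mean 5.32), correlated with the first at 0.24 and differed by -0.05. The 2 further MCM2 probe sets were dim (means 3.79 and 5.50), correlated with the first at 0.17 and 0.31 and differed by -0.02 and -0.28, so the MCM2 difference rests on 1 probe set. MCM3, of the same ring, overlapped columns 1 to 6 in all other runs, with medians of 7.34, 7.10, 7.24 and 6.87. MCM4 read 7.16 to 7.71 over all arrays on its brightest probe set. Its second, dimmer probe set (mean 5.94) spanned 1.22, correlated with the first at -0.42 and differed by -0.60 between columns 19 to 23 and columns 1 to 6, so the MCM4 probe sets disagree.

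The origin recognition genes were higher, or overlapped, in columns 19 to 23. ORC6 read 8.75 to 9.05 in columns 1 to 6 and 9.20, 9.14, 9.39, 9.53 and 9.19 in columns 19 to 23, and ORC4 read 8.78 to 9.10 and then 9.18, 9.35, 9.32, 9.29 and 9.41. Both were higher without overlap, by 0.19 and 0.39 between medians. The further ORC4 probe sets were dim (means 4.66 and 3.21), with differences of 0.24 and -0.06. ORC3 was lower in columns 7 to 12 (7.17 to 7.46) than in columns 1 to 6 (7.68 to 7.90) and overlapped them in the later runs. ORC1, a subunit whose level changes over the cycle in many cells, spanned 1.05 and overlapped between all the runs compared. In counts over the 9, 0 were higher and 1 lower in columns 7 to 12 than in columns 1 to 6 (all genes 5.47% and 11.4%). In columns 13 to 18, 0 were higher and 0 lower (all genes 13.9% and 28%), and in columns 19 to 23, 2 were higher and 3 lower (all genes 13.9% and 22.4%). These counts are small and were not tested.

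Of the 4 cyclins, the mitotic B cyclins stood out in columns 13 to 18. CCNB1, the main partner of CDK1 at entry into mitosis, read 9.32 to 9.73 (median 9.45), 9.31 to 9.87 (median 9.64), 9.92 to 10.11 (median 9.97), and then 9.39, 9.25, 9.60, 9.67 and 9.06. CCNB2 read 7.40 to 7.65 (median 7.52), 7.17 to 7.95 (median 7.56), 8.07 to 8.44 (median 8.19), and then 8.10, 7.98, 8.15, 8.35 and 8.07. The pair parted in columns 19 to 23: CCNB1 was back within the range of columns 1 to 6, apart from lower readings in columns 20 and 23, while CCNB2 stayed 0.57 above, without overlap. CCNA2, the S phase and mitosis cyclin, was dim (6.12 to 7.03) and overlapped throughout.

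CCND2, a D cyclin that links growth factor signals to CDKs, was the one member of the 4 whose arrays divided inside every run. It read 9.92, 10.15, 10.24, 10.14, 8.67 and 8.96 in columns 1 to 6, and 9.81, 9.89, 9.71, 9.78, 8.47 and 8.74 in columns 7 to 12. Columns 13 to 18 read 9.57, 9.45, 9.55, 9.57, 7.90 and 7.90, and columns 19 to 23 read 8.92, 8.88, 9.88, 9.93 and 7.83. In the first 3 runs the third pair was the low one. In the last run column 23 was the lowest, and columns 19 and 20 also lay about as low as column 6. No run was apart from another for CCND2, since this split was wider than the distance between runs. The labelled pigs do not line up with it: the low arrays in columns 5 and 6 are labelled pig 1, columns 11 and 12 pig 2, and columns 17 to 20 and 23 pig 3.

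Of the 8 measured CDK genes, 0 were higher than columns 1 to 6 in any other run. Lower were 2 in columns 7 to 12 (25.0%, against 11.4% of all genes), 1 in columns 13 to 18 (12.5%, against 28%) and 1 in columns 19 to 23 (12.5%, against 22.4%). CDK5, an atypical kinase best known from neurons, had the widest span (2.08). It read 7.66 to 8.56 (median 7.96), 7.58 to 8.27 (median 7.79), 6.48 to 7.51 (median 7.10) and then 7.18, 6.99, 7.55, 7.68 and 7.39, so that columns 13 to 18 lay below both earlier runs. CDK2, the S phase kinase, read 6.98 to 7.99 over the table and overlapped throughout. CDK9, the kinase of transcription elongation, was lower in columns 7 to 12 (8.48 to 8.96) than in columns 1 to 6 (9.03 to 9.50), and CDK13, another transcription kinase, was too (8.67 to 8.92 against 8.94 to 9.16). CDK7, which activates other CDKs, read 8.16 to 9.27 and overlapped columns 1 to 6 in each run. CDK10 was lower in columns 19 to 23 alone, at 6.79, 6.99, 7.18, 6.98 and 6.96 against 7.25 to 7.55.

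The CDK inhibitors, with 6 genes including the CDK-inactivating phosphatase CDKN3, held the largest difference of the 45. CDKN2D, an INK4 inhibitor of the CDK4 and CDK6 kinases, read 6.83 to 7.24 (median 7.02), 6.13 to 6.98 (median 6.23), 7.27 to 8.06 (median 7.47), and then 9.11, 8.99, 8.57, 8.52 and 8.40. Columns 13 to 18 and 19 to 23 did not overlap columns 1 to 6 or each other, with medians 0.44 and 1.55 above those of columns 1 to 6. In columns 7 to 12, 4 of the 6 arrays (6.13 to 6.29) lay below every array of columns 1 to 6 and the other 2 (6.86 and 6.98) did not.

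CDKN1B, an inhibitor of cyclin-CDK2 known for holding cells in quiescence, read 8.98, 9.00, 8.31, 8.67, 8.60 and 8.79 in columns 1 to 6. It read 9.51, 9.55, 7.76, 8.11, 7.51 and 7.38 in columns 7 to 12, so the first pair there was high and the next 2 pairs were low. Columns 13 to 18 read 9.26, 9.42, 8.60, 8.75, 8.72 and 8.98, and columns 19 to 23 read 10.04, 9.76, 9.57, 9.74 and 9.40. Columns 19 to 23 lay above columns 1 to 6 by 1.01 between medians without overlap. They were not apart from columns 13 to 18. A second probe set followed the first (correlation 0.94, difference 1.04), and the third was dim (mean 4.88, correlation 0.20).

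CDKN1A, the inhibitor induced by p53 and by many stress and differentiation signals, was the brightest member. It read 12.05 to 12.26 (median 12.12), 11.78 to 12.47 (median 12.07) and 10.77 to 11.43 (median 11.00), and then 12.29, 12.39, 11.77, 11.72 and 11.70. Columns 13 to 18 lay below all other arrays, 1.12 below the median of columns 1 to 6, and their first pair (11.38 and 11.43) was the highest of the run. CDKN3 was the one member of the group higher in columns 7 to 12 (8.99 to 9.24 against 8.63 to 8.87). CDKN2B (5.47 to 6.30) and CDKN2C (5.88 to 6.39) were dim on every array and overlapped columns 1 to 6 throughout.

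Of the 6 CDC phosphatases and ubiquitin ligase parts, 1, 5 and 3 lay below columns 1 to 6 in columns 7 to 12, 13 to 18 and 19 to 23, beside 11.4%, 28% and 22.4% of all genes, and 0 lay above in any. The 6 were grouped after values were seen, so nothing about the group is drawn from these counts. CDC25B, a phosphatase that activates CDKs, read 9.08 to 9.31 (median 9.18), 8.33 to 9.15 (median 8.62), at most 8.39 (median 8.24), and then 8.68, 8.74, 8.29, 8.20 and 8.63. CDC23, a subunit of the anaphase-promoting complex, read 7.51 to 7.86 (median 7.71), 6.62 to 7.42 (median 6.97), 7.12 to 7.43 (median 7.29), and then 6.67, 6.55, 6.72, 6.92 and 6.81. It was the one gene of the 6 that lay below columns 1 to 6 in all the other runs.

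CDC26, a small subunit of the same complex, read 10.15 to 10.37 (median 10.25), 9.81 to 10.18 (median 9.93), 8.88 to 9.32 (median 9.12), and then 10.04, 10.27, 9.21, 9.21 and 9.85. CDC20, which activates that complex, had medians of 7.88, 7.43, 7.52 and 7.42. After quantile normalisation the differences of columns 13 to 18 from columns 1 to 6 shrank from -0.36 to -0.20 for CDC20 and from -0.42 to -0.26 for CDC23. CDC34, a ubiquitin-conjugating enzyme, had medians of 9.25, 8.88, 8.65 and 8.93. CDC25C, the mitotic phosphatase, was dim (5.49 to 7.41) and overlapped throughout, with 1 array, column 1, at 7.41 and its neighbour at 6.33.

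The 23 partners, relatives and namesakes held the widest span of all the members and some of the largest differences. CDC42EP3, which binds the small GTPase CDC42 and organises actin and septins, read 9.26 to 9.56 (median 9.42), 9.18 to 9.61 (median 9.31), 7.56 to 8.70, and then 10.53, 10.66, 10.14, 10.09 and 10.19; a second probe set followed it (correlation 0.95). CDC42EP2, its relative, read 6.23 to 7.23 (median 6.53), 7.39 to 8.44 (median 7.95), 7.33 to 8.14 (median 7.97), and then 6.58, 6.86, 7.63, 7.39 and 7.36. Its medians in columns 7 to 12 and 13 to 18 were 1.41 and 1.44 above that of columns 1 to 6, while a second, dimmer probe set (mean 6.08, correlation 0.83) differed by 0.40 and 0.36. CDC37L1, a relative of an HSP90 co-chaperone, read 8.15 to 8.36 (median 8.27), 8.48 to 9.66 (median 8.82), 9.08 to 10.06 (median 9.55), and then 8.10, 7.96, 8.73, 8.70 and 8.40. The relatives thus differed: CDC42EP2 was high in the middle runs, and CDC42EP3 was low in columns 13 to 18 and high in columns 19 to 23.

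CDK2AP1, a CDK2-associated protein found in chromatin complexes, was lower in each later run: its medians were 10.61, 10.41, 9.73 and 9.07, with no overlap between columns 1 to 6 and any other run. CDK2AP2 had medians of 9.36, 9.11, 8.45 and 8.32. CDC42BPA, a kinase acting below CDC42, had medians of 7.84, 7.68, 6.61 and 6.89. Against columns 1 to 6 it differed by -1.24 in columns 13 to 18 and -0.96 in columns 19 to 23. A second, dimmer probe set (mean 5.08, correlation 0.86) differed by -0.58 and -0.50. CDC42 itself read 11.06 to 11.75 over all arrays, and was lower without overlap in columns 13 to 18 (-0.16) and 19 to 23 (-0.41). Another bright probe set of CDC42 (mean 11.33) differed by 0.08 and -0.19, and the third was dim (mean 4.09). CDC123, a factor of translation initiation, had medians of 9.88, 9.83, 9.42 and 9.28, and its second probe set was dim (mean 4.33), with differences from columns 1 to 6 of -0.0027 in columns 13 to 18 and -0.02 in columns 19 to 23. POLDIP3, a factor of mRNA export, was lower in all 3 other runs on its brightest probe set (medians 9.18, 8.61, 8.49 and 8.63), while the other 2 correlated with it at -0.37 and -0.57, so its probe sets disagree. The remaining genes of this kind with a span of at least 1 were CDC37, CDC42BPB, CDK5RAP3 and CDKN2AIP, with spans of 1.03, 1.08, 1.24 and 1.42.

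Over all 68 members, counts of non-overlap were read against the share among all genes, which was high throughout. In columns 7 to 12 against columns 1 to 6, 5 members were higher (7.35%, against 5.47% of all genes) and 12 lower (17.6%, against 11.4%). In columns 13 to 18 against columns 1 to 6, 8 were higher (11.8%, against 13.9%) and 22 lower (32.4%, against 28%). In columns 19 to 23 against columns 1 to 6, 6 were higher (8.82%, against 13.9%) and 19 lower (27.9%, against 22.4%). Between columns 13 to 18 and 7 to 12, 9 were higher (13.2%, against 12.3%) and 15 lower (22.1%, against 19.4%). Between columns 19 to 23 and 13 to 18, 7 were higher (10.3%, against 14.1%) and 13 lower (19.1%, against 10.6%). The median differences of the members in these comparisons were -0.13, -0.15, -0.14, -0.02 and -0.07, beside -0.04, -0.05, -0.03, -0.02 and 0.00 for all genes. Leaving out a pair of arrays can only keep or raise such counts. Without columns 7 and 8 the 12 became 22, and without columns 19 and 20 the 6 became 10. Without columns 17 and 18, 19 and 20, or 21 and 22 the 7 became 12. The share of all genes was not computed for these smaller sets, so the rises are not read as a result about the members.

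Of the 45 genes with a role in the cycle, in replication or as a CDK, 3 were higher (6.67%) and 7 lower (15.6%) in columns 7 to 12 than in columns 1 to 6, beside 5.47% and 11.4% of all genes. In columns 13 to 18, 6 were higher (13.3%) and 9 lower (20%), beside 13.9% and 28%, and in columns 19 to 23, 5 were higher (11.1%) and 11 lower (24.4%), beside 13.9% and 22.4%. Of the 23 partners, relatives and namesakes, 2, 2 and 1 were higher and 5 (21.7%), 13 (56.5%) and 8 (34.8%) lower in the same order. These shares describe 23 arrays and groups drawn up after values were seen, and they were not tested.

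**Figure D3:**
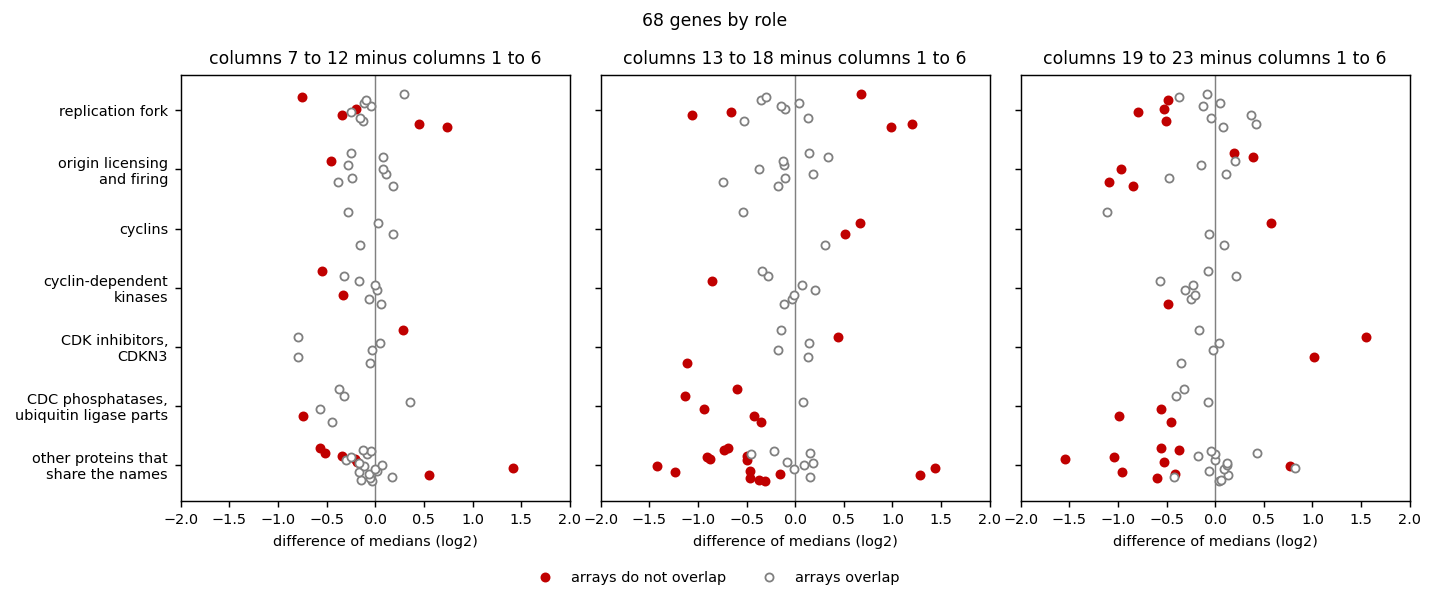
Difference of run medians (log2, horizontal axis) from columns 1 to 6 for each of the 68 members (points), grouped by role, in columns 7 to 12, 13 to 18 and 19 to 23; filled red points are genes whose arrays do not overlap between the runs. Points lie on both sides of 0 in most panels and roles, the CDC phosphatases and ubiquitin ligase parts lie mostly below it, and CDKN2D is the farthest to the right in columns 19 to 23 (1.55). Roles were assigned after values were seen.

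The members whose levels ran most like TOP2A, which stands in for MKI67 since that was not measured, were CDC37L1 (Pearson correlation 0.78, Spearman 0.68 over 23 arrays), POLA2 (0.72 and 0.56), CCNB1 (0.67 and 0.59), PCNA (0.67 and 0.78) and CDC42EP2 (0.58 and 0.59). Leaving out the 2 arrays farthest from the TOP2A median gave 0.73, 0.72, 0.60, 0.65 and 0.59. The arrays come in similar pairs and share the steps between runs, so these values are descriptions without a test. For MCM5 the Pearson correlation with TOP2A was 0.23, for MCM2 0.05 and for CCND2 -0.37.

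Some genes of the pathway outside the symbol rule differed more than any of the 45. Of 59 listed, 38 were measured. In columns 7 to 12 against columns 1 to 6, 5 were higher (13.2%, against 5.47% of all genes) and 4 lower (10.5%, against 11.4%). In columns 13 to 18, 10 were higher (26.3%, against 13.9%) and 6 lower (15.8%, against 28%), and in columns 19 to 23, 7 were higher (18.4%, against 13.9%) and 8 lower (21.1%, against 22.4%). The growth-arrest genes GADD45B and BTG2 were low in columns 1 to 6 (medians 6.01 and 7.93), high in columns 7 to 12 (10.47 and 11.81) and 13 to 18 (9.48 and 10.32), and between these in columns 19 to 23 (7.77 and 8.74). GADD45A, of the same family as GADD45B, had the opposite order, with medians of 12.75, 10.05, 9.82 and 11.67. The antiproliferative gene BTG1 had medians of 11.62, 12.75, 12.71 and 12.84. MYC, a transcription factor that drives growth, had medians of 9.80, 7.23, 7.20 and 8.15, and all other runs lay below columns 1 to 6.

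The S phase and mitosis genes of this list lay on both sides. Higher in columns 13 to 18 than in columns 1 to 6 were DBF4, the activator of the origin-firing kinase (medians 7.96 and 9.15), the mitotic kinases AURKA (7.67 and 8.36) and AURKB (7.91 and 8.24), the transcription factor E2F3 (7.12 and 8.16), the flap endonuclease FEN1 (8.65 and 9.04) and BIRC5, of the chromosomal passenger complex (8.04 and 8.78). Lower there were TYMS, which makes thymidylate (8.93 and 7.61), the DNA ligase LIG1 (7.62 and 6.99) and the single-strand binding proteins RPA1 (10.01 and 9.37) and RPA2 (9.54 and 9.16). The ribonucleotide reductase genes RRM1 and RRM2 overlapped columns 1 to 6 there. In columns 19 to 23, RRM1 (median 9.51 against 10.12), BUB3 (10.42 against 11.13), CHEK2 (6.60 against 7.32) and UBE2C (8.76 against 9.28) were lower, as were TYMS, LIG1 and RPA1 (7.95, 7.24 and 9.07). DBF4 (8.87 against 7.96), GMNN, the inhibitor of origin licensing (10.66 against 10.17), the spindle protein NUSAP1 (9.75 against 9.36) and AURKA (8.03 against 7.67) were higher.

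By the labelled times, no member passed the test. With limma over all 23999 probe sets, on 12 means of duplicate cultures with the labelled pig as a block, 0 of 68 members had an adjusted p (Benjamini-Hochberg) under 0.05 for any labelled time, and 2 probe sets in all did (0.00833%). The counts were 0 members for 2 h against 0 h (3 probe sets, 0.0125%), 0 for 7 h against 0 h (0 probe sets, 0%) and 0 for 24 h against 0 h (1 probe set, 0.00417%). At an unadjusted p under 0.05 the members numbered 2 for any time, 2, 1 and 2, which is 2.94%, 2.94%, 1.47% and 2.94% of them, beside 2.89%, 2.17%, 3.14% and 4.11% of all probe sets. None of the 38 other cell cycle genes was called. The most similar neighbouring arrays carry different labelled times, so these tests set arrays that resemble each other against one another.

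Of the genes plotted by labelled time, PCNA averaged 11.21 ± 0.44 (SD, n = 3 labelled pigs) at 0 h, 11.28 ± 0.39 at 2 h, 11.01 ± 0.70 at 7 h and 10.85 ± 1.13 at 24 h; its 24 h minus 0 h difference was -0.36 (SE 0.43, limma adjusted p = 0.915). CDKN1A averaged 11.75 ± 0.44, 11.68 ± 0.41, 11.89 ± 0.44 and 12.02 ± 0.54, with a difference of 0.27 at 24 h (SE 0.26, limma adjusted p = 0.914). TOP2A averaged 9.81 ± 0.09, 9.82 ± 0.17, 9.66 ± 0.30 and 9.75 ± 0.32. Over the 68 members the differences from 0 h ran from -0.34 to 0.30 at 2 h, from -0.24 to 0.37 at 7 h and from -0.36 to 0.46 at 24 h. The labels call the cultures duplicates of 3 pigs. Duplicates were averaged and the labelled pig was a block. The p-values thus rest on the spread of the pig-by-time means that labelled time and pig leave over.

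CDKN1B was the one member whose call changed. As labelled it averaged 8.81 ± 0.32, 9.01 ± 0.31, 8.89 ± 0.83 and 8.98 ± 0.86, and its 24 h minus 0 h difference was 0.17 (SE 0.23, limma adjusted p = 0.917). Without the 8 arrays whose EIF1AY level went against the labelled sex, the difference over the 15 left was 0.93 (SE 0.09, limma adjusted p = 0.0412), and 3 probe sets in all were called. That filter checks the labelled sex and not the labelled time. The arrays left at labelled 24 h were columns 8, 16 and 20, and those at labelled 0 h were columns 1, 5, 9 and 17. Both groups thus still mix runs of columns, and the difference cannot be read as a change at 24 h. No member was called at the other labelled times without those arrays.

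**Figure D4:**
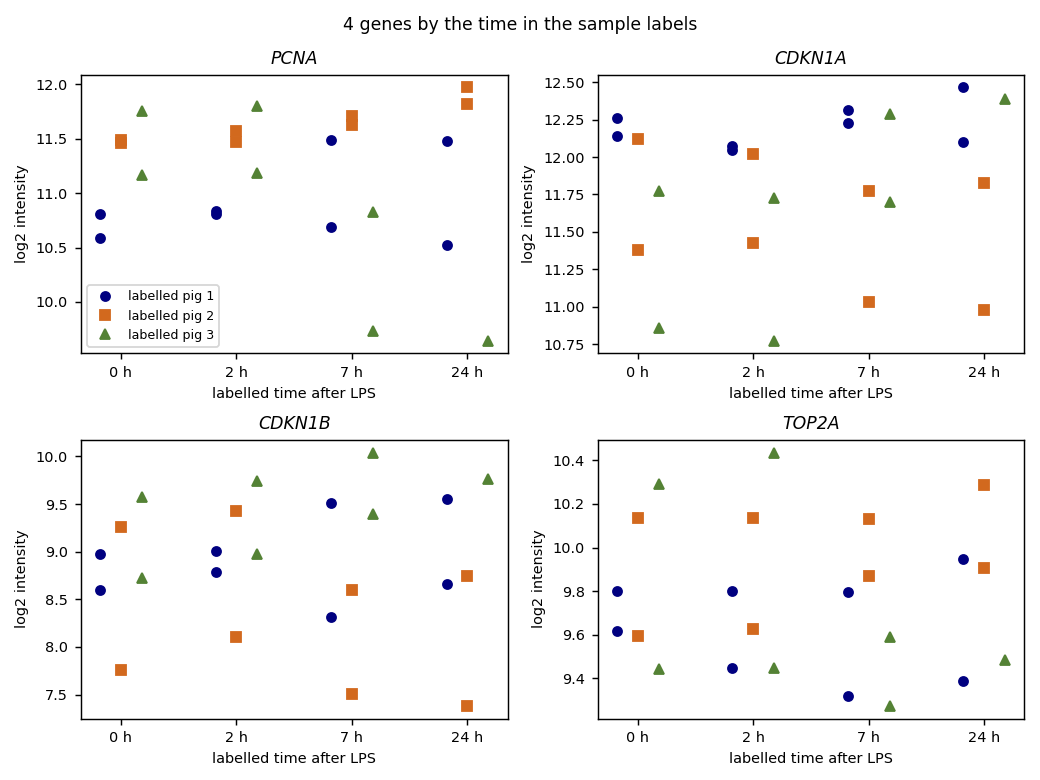
Log2 intensity (vertical axis) of PCNA, CDKN1A, CDKN1B and TOP2A on each array by labelled time after LPS (horizontal axis), with a symbol for each labelled pig. Arrays of 1 labelled time spread widely, from 9.65 to 11.97 for PCNA at 24 h, and duplicate cultures often lie far apart.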

How the data were processed

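RNA of 23 cultures was hybridised to Affymetrix porcine arrays. The deposited intensity values are on a linear scale. Per the submitters' processing notes, the authors used RMA in affy, with versions not given in the sources at hand. RMA corrects background and equalises intensity distributions between arrays, which can shrink shifts common to many genes. Values were converted to log2 and not normalised again. The table holds 24123 probe sets, from which 124 array controls were removed. The platform annotation gave 1 gene for 10069 of the rest, several for 198 and none for 13732; 9961 were matched by gene identifier to the RefSeq table of Sscrofa11.1, and 0 symbols changed. Array medians ran from 69.5 to 73.9.

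The labelled test used limma 3.58.1 in R 4.3.3 on pig-by-time means, with time and pig as terms, 6 residual degrees of freedom and Benjamini-Hochberg adjustment at 0.05. The simulated data on which the fit was tried had independent noise, correct time labels and no pig effect. They therefore cannot show how it performs on these arrays, which go against their labels. The pairing by pig comes from the series description. Deviations within a labelled pig correlated at 0.87 to 0.97 between 0 and 2 h and at 0.83 to 0.90 between 7 and 24 h. Those pairs of labelled times sit in neighbouring columns, which are the most similar arrays. The other pairs of times gave 0.27 to 0.78. These values follow the columns and so cannot serve as a check of the labelled pairing. The planned test took log2 values, so the linear unit only added the conversion. Named members were 30 listed genes, of which 18 were measured, and every other member spanning at least 1 log2, 46 in all; the text also names members outside this rule, chosen after their values were seen. The members and lists were chosen with earlier results of these data known, and the grouping by role was made, by function, after values were seen. Alternatives covered the block, replicates, cultures, dim probe sets, normalisation, arrays against their labels and the probe set per gene. No coordinates or sequences are given.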

Additional observations from a re-analysis of the deposited data

Results flagged for a closer look

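In 184 groups of arrays (each of the 46 named members at each labelled time), 9 had a highest or lowest array whose gap to the next was large for the group's range; chance flags about 1 in 20, or 9.2 here. CDC25C at labelled 0 h had 1 high array, pig 1 culture 1 (column 1), at 7.41, beside 6.33 in column 2. POLA2 at labelled 2 h had 1 high array, pig 3 culture 1 (column 18), at 9.62. The other 7 were low arrays. CDC26 at labelled 7 h read 9.19 in pig 2 culture 2 (column 15). CDC45 at labelled 2 h read 6.70 in pig 3 culture 2 (column 22), and CDK9 at that time read 8.48 in pig 2 culture 1 (column 10). CDKN2AIP read 7.51 at labelled 0 h and 7.80 at 2 h in the same labelled culture, pig 2 culture 1 (columns 9 and 10, a pair of most similar arrays). CDC37 and POLE3 at labelled 24 h read 8.79 and 8.67, both in pig 3 culture 1 (column 20).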

How the results depend on the processing

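By the labelled times, members called stayed at 0 under the fit without the replicate block (no replicate block: 0 in all 4 comparisons), without each labelled pig, on unaveraged arrays, with bright probe sets alone, after quantile normalisation and with every probe set counted. The exception was 1 member, CDKN1B, at 24 h against 0 h without the arrays against their labelled sex. The counts of members not overlapping between runs were smaller when a difference of at least 1 was asked: 1 higher and 0 lower in columns 7 to 12 than in columns 1 to 6, 3 and 5 in columns 13 to 18, 2 and 3 in columns 19 to 23, 1 and 3 in columns 13 to 18 against 7 to 12, and 3 and 1 in columns 19 to 23 against 13 to 18. Leaving out a neighbouring pair gave, for higher and lower in the same order, 5 to 5 and 12 to 22, 8 to 10 and 23 to 26, 6 to 10 and 19 to 25, 9 to 13 and 16 to 22, and 8 to 12 and 13 to 17. Such counts can only stay or rise when arrays are left out. With a difference of at least 1 asked, more members were higher than lower in columns 7 to 12 against 1 to 6 (1 and 0). The same held in columns 19 to 23 against 13 to 18 (3 and 1). The full counts had more lower ones in both. These counts are small, and the share of all genes at that size was not computed. Nothing about the members is drawn from them. Of the named genes' differences, 157 values moved by less than the spread within runs and 15 by more, among them MCM2 in columns 19 to 23 (-0.28 on the median of all its probe sets). Only 24 of the 68 members had more than 1 probe set. For the others the median of all probe sets equals the main value by construction. Part of the 157 thus could not move, and the tally is no measure of robustness. Quantile normalisation moved the median of all genes by at most 0.016. Depth does not apply to arrays; the 3 members with means under 6 are limited by dim signal.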
